A study of Mus musculus with 20 samples.

Results

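The miR-181 family was followed in the left ventricle of the mouse heart after transverse aortic banding (TAB), which narrows the aorta and loads the ventricle with pressure. Its 4 mature strands, mmu-miR-181a, mmu-miR-181b, mmu-miR-181c, and mmu-miR-181d, were chosen by the names of their array probes, and were tested together with 924 other mouse miRNAs, out of 1082 others with a probe on the array. All samples came from male C57BL/6J mice aged 8 weeks and weighing 20 to 25 g at surgery, and the TAB group and the sham-operated group were each sampled on days 3, 5, 7, 14, and 28. Total RNA of each surgery and day was labelled with Cy5 and hybridized to 2 arrays, which the methods of the study call technical replicates, so the data held 5 TAB samples and 5 sham samples on 20 arrays. The number of hearts behind each array is not given in the sources used here. For TAB day 14, the sample titles give day 14 and the condition labels give day 15, and the titles were used.

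MiRNAs are short RNAs that guide a silencing complex to messenger RNAs, mostly by pairing of their seed, the bases near the 5′ end, with sites in the target. The miR-181 family is conserved among vertebrates and is best known from lymphocyte development, where miR-181a tunes the sensitivity of T-cell receptor signalling. In the blood vessel wall miR-181b has been studied as a brake on inflammatory signalling in endothelium, and in rat heart muscle cells miR-181c is known to enter mitochondria and to target the message of a cytochrome c oxidase subunit.

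The mature sequences are shown because the 4 members share their seed while their genes lie in separate clusters. They were matched by name to RefSeq (GRCm38.p6), where 4 of 4 members were found, and the capitals mark bases 2 to 8, the seed.
mmu-miR-181a: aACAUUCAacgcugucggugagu
mmu-miR-181b: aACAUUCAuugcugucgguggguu
mmu-miR-181c: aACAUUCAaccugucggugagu
mmu-miR-181d: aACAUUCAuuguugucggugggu

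Among the 1679 mature names of that RefSeq table, these 4 were the only ones with this seed. The a and b strands are encoded at 2 places, side by side on chromosome 1 (mmu-miR-181a at chr1:137966468-137966490, plus strand) and on chromosome 2 (mmu-miR-181a at chr2:38852741-38852763, plus strand), with 159 and 1081 bases between the mature a and b strands. The chromosome 2 pair lies within the span of the protein-coding gene Nr6a1 and of its antisense transcript Nr6a1os. For the chromosome 1 pair no spanning gene was listed, but genes named after the family were left out of that search. A longer gene with such a name would have been missed. The c and d strands are encoded once each, on the minus strand of chromosome 8 (mmu-miR-181c at chr8:84178924-84178945), 142 bases apart and between the genes Nanos3 and Mir23a. Sequence likeness ran across these clusters. With positions counted from 1 at the 5′ end, mmu-miR-181c differs from mmu-miR-181a only by lacking the base at position 11, and mmu-miR-181d differs from mmu-miR-181b by C12U and by lacking the last base. Within the clusters the differences were more numerous, namely A9U, C10U, A21G, and 1 added 3′ base from mmu-miR-181a to mmu-miR-181b, and 4 substitutions and 1 added base from mmu-miR-181c to mmu-miR-181d. The sequences of the array probes were not used here, so the share of signal that one member's RNA gives on the probe of another was not tested. Since each a or b strand is the same from both of its hairpins, its probe cannot separate the chromosome 1 cluster from the chromosome 2 cluster.

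The arrays of the 2 surgeries differed in brightness. Before normalization the 75th percentile over miRNAs lay between 180 and 288 on the TAB arrays, against 303 to 444 on the sham arrays, while the median of empty spots lay between 65 and 73 for TAB, against 68 to 74 for sham. Levels are given as log2 intensity after quantile normalization, which gives all 20 arrays the same distribution, and every statement on direction below is relative to that distribution. The sham day 14 sample stood apart from the other sham samples on the first principal component of all miRNAs, which carried 62.4% of the variance (4.92 to 7.66 for the TAB arrays, -1.31 and -2.16 for the sham day 14 arrays, and -8.06 to -6.78 for the other sham arrays). Of a list of heart muscle miRNAs, 7 of 7 were found on all 20 arrays. The same held for 4 of 4 miRNAs of a vessel list and 5 of 7 of a white blood cell list. It also held for 2 of 4 of a red blood cell list, and for 436 of all miRNAs tested. Being found is thus too common to check the tissue label, and no conclusion on the label was drawn from it. The RNA came from whole ventricle, so a change in the number of cells of a type and a change in RNA per cell cannot be told apart.

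Over the 5 days and under the common distribution, both strands of the c/d cluster were higher after TAB, and those of the a/b clusters did not pass the test. mmu-miR-181c was 1.41-fold and mmu-miR-181d 1.27-fold higher in TAB than in sham, and both passed the test across all miRNAs (adjusted p below 0.05). The differences of mmu-miR-181a and mmu-miR-181b were also positive, at 1.27-fold and 1.16-fold, and did not pass it. All 4 members were found on every array, with 30 of 30 spots free of a negative flag in TAB and 30 of 30 in sham. Without any scaling between arrays the differences of mmu-miR-181a, mmu-miR-181b, and mmu-miR-181d turned negative and none of the 4 passed the test, as described further on.

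**Figure D1:**
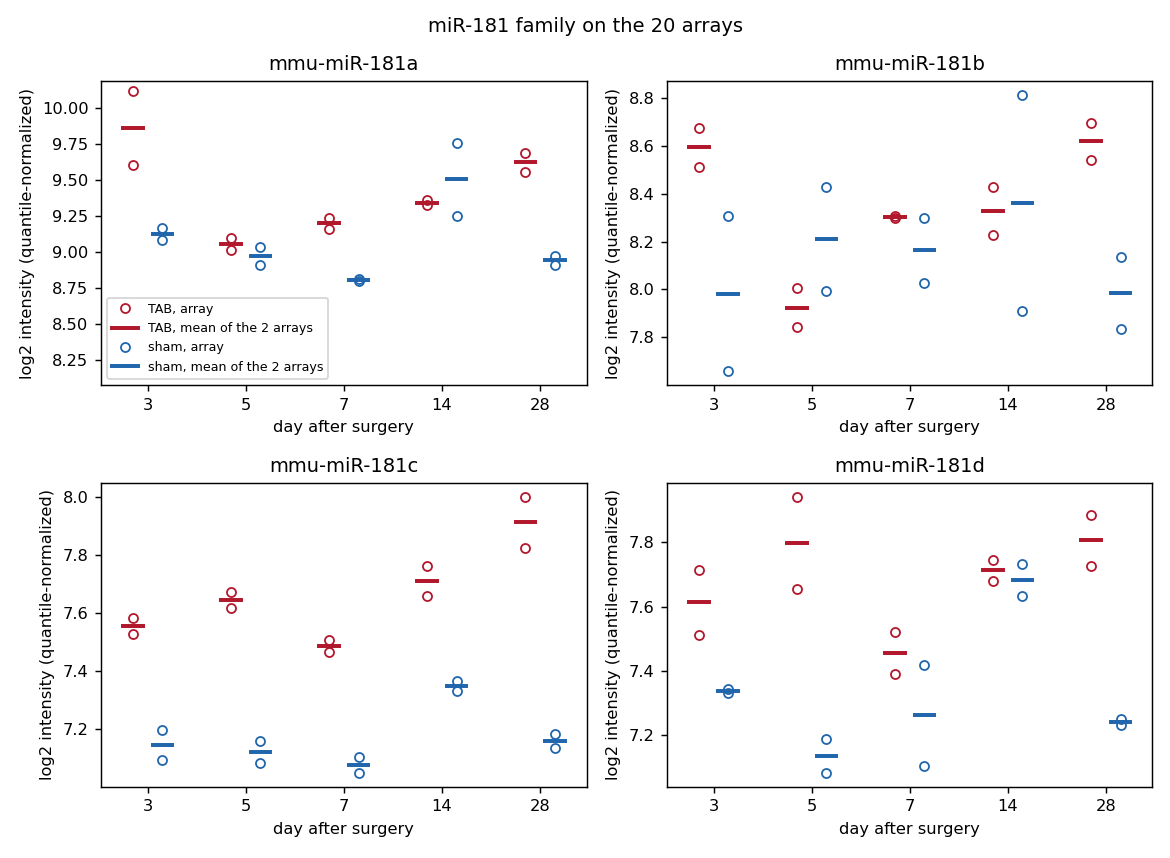
Normalized log2 intensity (vertical axis, a different range in each panel) of the 4 members on each day after surgery (horizontal axis), with TAB in red left of sham in blue. Circles are the 2 arrays of a sample and bars their mean. The TAB and sham arrays of mmu-miR-181c are separate on all 5 days, and the 2 sham arrays of mmu-miR-181b on day 14 lie far apart at 8.81 and 7.91.

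mmu-miR-181c had levels of 7.56, 7.64, 7.49, 7.71, and 7.91 in TAB hearts on days 3, 5, 7, 14, and 28, against 7.15, 7.12, 7.08, 7.35, and 7.16 in sham hearts. Every TAB sample lay above every sham sample, as was the case for 15.9% of all miRNAs tested, and the nearest pair was TAB day 7 and sham day 14. The mean was 7.66 ± 0.16 in TAB and 7.17 ± 0.10 in sham (SD, n = 5 each). The difference was 0.49 ± 0.07 on the log2 scale (SE, 95% interval 0.33 to 0.65, adjusted p = 0.00443, limma), and TAB was higher on 5 of 5 days. Its raw intensity, before any normalization, ranged from 138 to 219 with a median of 166.5 on TAB arrays and from 143 to 196 with a median of 163.5 on sham arrays. The raw values of the 2 surgeries therefore overlapped, and the separation appeared on the scale relative to the other miRNAs of each array.

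mmu-miR-181d had levels of 7.61, 7.80, 7.45, 7.71, and 7.81 in TAB hearts on days 3, 5, 7, 14, and 28, against 7.34, 7.14, 7.26, 7.68, and 7.24 in sham hearts. The groups overlapped through sham day 14, which lay above TAB day 3 and TAB day 7. The mean was 7.68 ± 0.15 in TAB and 7.33 ± 0.21 in sham (SD, n = 5 each), and the difference was 0.34 ± 0.10 (SE, 95% interval 0.10 to 0.59, adjusted p = 0.0396, limma). TAB was higher on 5 of 5 days. This call rested on the whole set of days: the adjusted p was 0.0889 without day 3, 0.0960 without day 5, 0.0741 without day 7, 0.109 without day 28, and 0.0202 without day 14, and it was 0.0576 without replicate 1 and 0.0679 without replicate 2 of every sample. Raw intensities ran from 134 to 219 in TAB and from 151 to 252 in sham.

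mmu-miR-181a had levels of 9.86, 9.05, 9.20, 9.34, and 9.62 in TAB hearts on days 3, 5, 7, 14, and 28, against 9.12, 8.97, 8.80, 9.50, and 8.94 in sham hearts. TAB was higher on 4 of 5 days, and on day 14 sham was higher. The mean was 9.41 ± 0.33 in TAB and 9.07 ± 0.27 in sham (SD, n = 5 each), with a difference of 0.35 ± 0.14 (SE, 95% interval -0.01 to 0.70, adjusted p = 0.105, limma). Without day 14 the difference was 0.47 with an adjusted p of 0.0304. With replicate 1 left out of every sample it was 0.35 with an adjusted p of 0.0347. Raw intensities ran from 332 to 954 in TAB and from 505 to 1273 in sham.

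mmu-miR-181b had levels of 8.59, 7.92, 8.30, 8.33, and 8.62 in TAB hearts on days 3, 5, 7, 14, and 28, against 7.98, 8.21, 8.16, 8.36, and 7.99 in sham hearts. TAB was higher on 3 of 5 days, and the lowest of all 10 samples was TAB day 5. The mean was 8.35 ± 0.28 in TAB and 8.14 ± 0.16 in sham (SD, n = 5 each), with a difference of 0.21 ± 0.15 (SE, 95% interval -0.16 to 0.58, adjusted p = 0.307, limma). Raw intensities ran from 168 to 357 in TAB and from 234 to 625 in sham.

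Read against all miRNAs, 179 (19.3%) were called higher and 202 (21.8%) lower in TAB over the 5 days, a split that became 593 and 110 with arrays scaled to their 75th percentile and 27 and 500 with no scaling. Of the 4 members 2 were called higher and 0 lower, and their median difference was 0.35, beside -0.02 over all miRNAs tested. The difference of mmu-miR-181c was larger than that of 90.4% of them, and those of mmu-miR-181a, mmu-miR-181d, and mmu-miR-181b were larger than 87.0%, 86.9%, and 81.5%. A share of members called with so many miRNAs called, and with only 4 members, does not set the family apart.

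Scaling decided the sign for most of the family. When every array was scaled by a single factor to its 75th percentile, the TAB minus sham differences were 0.25 for mmu-miR-181a, 0.25 for mmu-miR-181b, 0.72 for mmu-miR-181c, and 0.56 for mmu-miR-181d, and c and d again passed the test (adjusted p = 1.82e-05 and 0.000326). With no scaling they were -0.39, -0.40, 0.07, and -0.09, and none passed. With a separate quantile target for each surgery they were -0.43, -0.45, 0.04, and -0.10. Here a and b were called lower in TAB (adjusted p = 0.0355 and 0.0259, limma). That target follows the between-sample step of the methods, but was applied here to raw values with no scaling first. The study applied its step to the processed data, so its own values were not reproduced. The processed table without that step gave 0.25, 0.25, 0.71, and 0.56. The 75th percentile, no scaling, and the target per surgery also moved the median of all miRNAs tested, to 0.40, -0.25, and -0.28. Relative to that median, mmu-miR-181c stayed higher in TAB at 0.51 under the common distribution, 0.32 with the 75th percentile or no scaling, and 0.32 with the target per surgery. mmu-miR-181d did so at 0.36, 0.16, and 0.17. By contrast, mmu-miR-181a lay 0.36 above the median under the common distribution and at -0.15 under each of the others, and mmu-miR-181b lay 0.23 above it and then at -0.15, -0.15, and -0.17. No background was subtracted, and empty spots had medians of 65 to 74. Raw intensities were 134 to 252 for the c/d members and 168 to 1273 for the a/b members. The part of background in the values relative to the median was not tested. Since all TAB arrays were dimmer than all sham arrays, the surgery and the brightness of the arrays cannot be told apart.

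**Figure D2:**
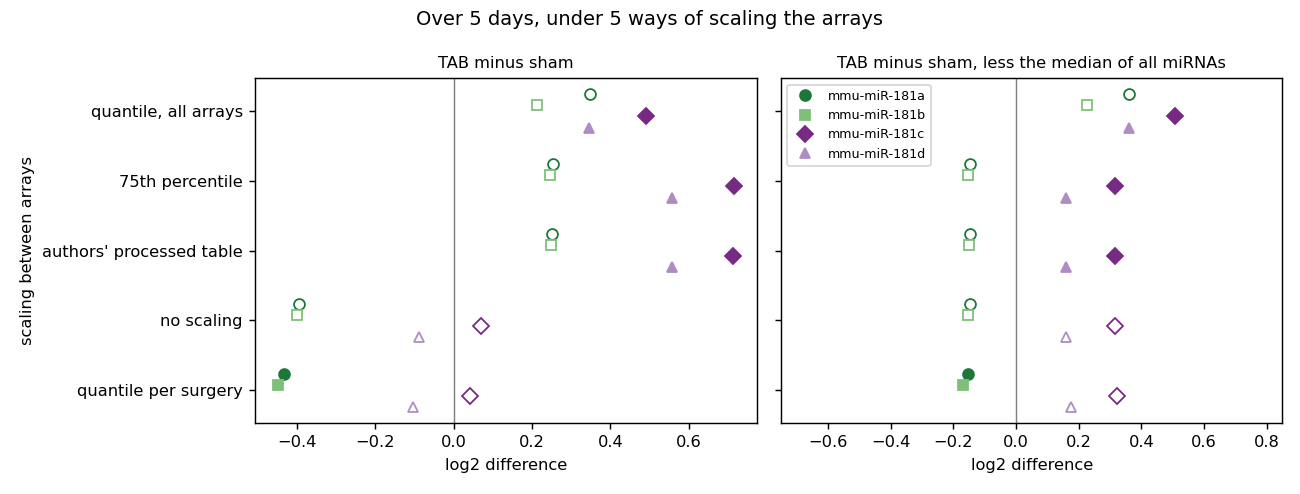
Log2 difference of TAB minus sham over the 5 days (horizontal axis) under 5 ways of scaling the arrays (rows), as measured at left and less the median of all miRNAs at right. Each symbol is 1 member, filled where the measured difference had an adjusted p below 0.05. After the median is taken off, mmu-miR-181c and mmu-miR-181d lie right of 0 in all rows, and mmu-miR-181a and mmu-miR-181b only in the first.

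For single days the error came from the repeated arrays alone, so each day's test sets 1 RNA sample against another and does not carry over to the surgeries at large. The share of all miRNAs called higher in TAB was 17.7% on day 3, 19.1% on day 5, 17.6% on day 7, 12.3% on day 14, and 18.1% on day 28. mmu-miR-181c was called higher on each of the 5 days, with differences of 0.41, 0.52, 0.41, 0.36, and 0.75 (each ± 0.07 SE, adjusted p between 2.20e-06 and 0.00195, limma), and its TAB and sham arrays did not overlap on any day. mmu-miR-181d was called on day 5 (0.66 ± 0.11, adjusted p = 0.000422) and on day 28 (0.56 ± 0.11, adjusted p = 0.00133), and its differences on days 3, 7, and 14 were 0.28, 0.19, and 0.03. mmu-miR-181a was called on day 3 (0.74 ± 0.15, adjusted p = 0.00228) and on day 28 (0.68 ± 0.15, adjusted p = 0.00303). Its differences on days 5, 7, and 14 were 0.08, 0.39, and -0.16. mmu-miR-181b was called on no day under the common distribution, with differences of 0.61, -0.29, 0.14, -0.04, and 0.63 (each ± 0.26 SE, smallest adjusted p = 0.0656 on day 28). Days 3 and 28 were thus the days on which all 4 members had TAB arrays above sham arrays, and on day 14 this held for mmu-miR-181c only. Among all miRNAs such a separation upward was common, at 33.6% on day 3, 32.4% on day 5, 33.6% on day 7, 31.8% on day 14, and 33.5% on day 28. Under the rule of the study's methods, which asks for a log2 ratio beyond 2 standard deviations of all ratios of the day (a limit of 0.70 on day 14 to 1.03 on day 28), no member qualified on any day under the common distribution, while 5.17% to 7.22% of all miRNAs did. The target per surgery on unscaled raw values was added for this rule once the data had been seen. After it the limits were 0.82 to 1.11 and 10.3% to 13.6% of all miRNAs qualified. Of the members only mmu-miR-181a on day 14 did so, at -0.98 against a limit of 0.82. The day 28 rise of mmu-miR-181c was the one member call kept in all 9 alternative settings of the single-day fit, with differences of 0.26 (target per surgery) to 0.91 (75th percentile). With no scaling or with the target per surgery no other member was called higher on any day. On day 5 mmu-miR-181a and mmu-miR-181b were instead called lower in TAB, at -0.91 and -1.12 with no scaling (adjusted p = 0.0133 for both) and at -0.68 and -0.88 with the target per surgery (adjusted p = 0.00334 and 0.0160). The target per surgery also had mmu-miR-181a and mmu-miR-181d called lower on day 14, at -0.98 and -0.44 (adjusted p = 0.000313 and 0.0018). In the other direction, further members were called higher in some settings. mmu-miR-181b was called on day 3 with the 75th percentile (0.72, adjusted p = 0.0127) and the processed table (0.73, adjusted p = 0.0300). On day 28 it was called with the 75th percentile (0.64, adjusted p = 0.0344) and among miRNAs found on all 20 arrays (0.64, adjusted p = 0.0371). mmu-miR-181d was called on days 3 and 7 with the 75th percentile (0.61 and 0.45) and the processed table (0.58 and 0.47), with adjusted p of at most 0.00310. mmu-miR-181a on day 7 was called with the mean of spots (0.42, adjusted p = 0.0457) and among miRNAs found on all 20 arrays (0.39, adjusted p = 0.0488).

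**Figure D3:**
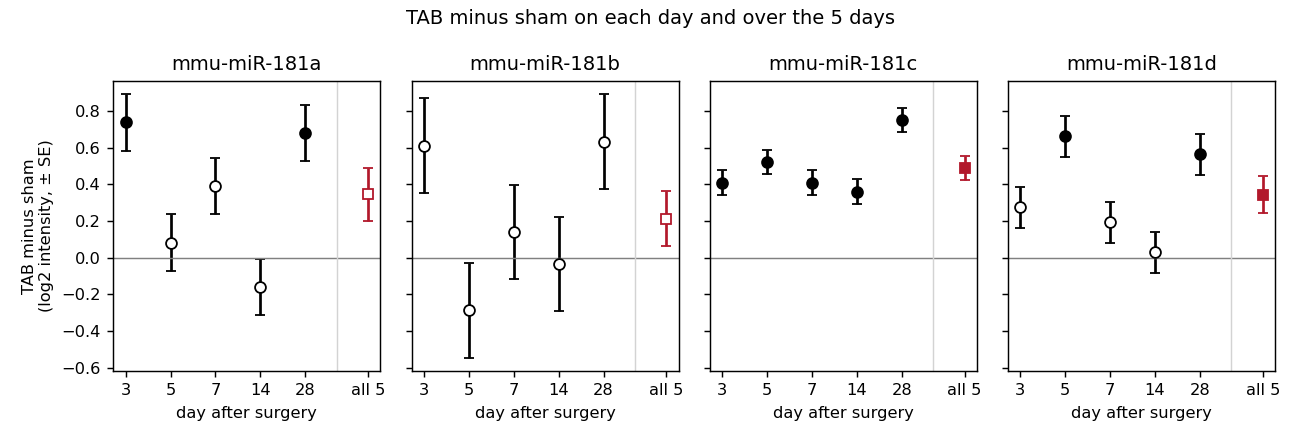
TAB minus sham difference in log2 intensity (vertical axis) on each day and over the 5 days together (horizontal axis) for each member, under the common distribution. Black circles come from the fit of single days and red squares from the fit over days, bars are ± 1 SE, and filled symbols had an adjusted p below 0.05. mmu-miR-181c is filled on all 5 days, mmu-miR-181a on days 3 and 28, mmu-miR-181d on days 5 and 28, and mmu-miR-181b on none.

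The precision of these day tests differed widely among members. The SD between repeated arrays was 0.29 for mmu-miR-181b, larger than for 95.6% of the 436 miRNAs found on all 20 arrays, whose median was 0.14. It was 0.17 for mmu-miR-181a, 0.12 for mmu-miR-181d, and 0.06 for mmu-miR-181c, the last one larger than for 2.52% of those miRNAs. Single array pairs carried much of this. For mmu-miR-181b the raw intensities of the 2 arrays were 625 and 276 for sham day 14 and 234 and 500 for sham day 3. For mmu-miR-181a they were 954 and 489 for TAB day 3 and 1273 and 637 for sham day 14. In each of these pairs the spots of the 2 arrays did not overlap, so these gaps lay between arrays and not between spots. Pooled over the 20 arrays, the SD of the 3 spots was 0.07 to 0.11 on the log2 scale for the 4 members. Some single arrays spread more, such as TAB day 5 replicate 1 for mmu-miR-181d, with spots from 126 to 165.

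The sham day 14 sample was the highest of the 5 sham samples for every member. It stood at 9.50 for mmu-miR-181a, where the other sham samples lay at 8.80 to 9.12, and at 8.36 for mmu-miR-181b, where they lay at 7.98 to 8.21. For mmu-miR-181b this rested on 1 of the 2 arrays, since they read 8.81 and 7.91 and the lower one lay below all other sham means. For mmu-miR-181c it was 7.35 against 7.08 to 7.16, and for mmu-miR-181d 7.68 against 7.14 to 7.34. On day 14 the TAB minus sham differences were -0.16, -0.04, 0.36, and 0.03 for mmu-miR-181a, mmu-miR-181b, mmu-miR-181c, and mmu-miR-181d. The TAB day 14 levels lay within the range of the other TAB days for all 4 members. The part of the high sham values in these differences was not tested. All 4 marker lists also had their highest sham sum on day 14. The sum of the heart muscle list was 16.6 there, against 15.9 to 16.3 in the other sham samples, with 7 of 7 miRNAs at their highest sham level. The sum of the white blood cell list was 10.3, against 9.78 to 10.1, with 5 of 7, while mmu-miR-142-3p and mmu-miR-142-5p were not at their highest. For the vessel list this held for 3 of 4 miRNAs and for the red blood cell list for 2 of 4. The share of all miRNAs with their highest sham level on day 14 was not computed. That sample also stood apart on the first principal component of all miRNAs. These counts therefore do not set the members or the lists apart. Over the 5 days the summed level of the white blood cell list was 10.3 to 10.7 in TAB samples and 9.78 to 10.3 in sham samples, and 5 of its 7 miRNAs were called higher in TAB. Of the vessel list 1 of 4, of the red blood cell list 2 of 4, and of the heart muscle list 2 of 7 were called higher and, in the last list, 1 lower. Under the same common distribution 19.3% of all miRNAs tested were called higher and 21.8% lower. Among the list miRNAs called higher, mmu-miR-142-5p was found on 7 TAB arrays and 0 sham arrays, and mmu-miR-144 on 5 and 0. The part of other cell types in the values of the family was not tested.

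Ordered by level within each member, TAB day 28 was the highest sample of mmu-miR-181b, mmu-miR-181c, and mmu-miR-181d, and TAB day 3 that of mmu-miR-181a. The lowest were sham day 7 for mmu-miR-181a and mmu-miR-181c, TAB day 5 for mmu-miR-181b, and sham day 5 for mmu-miR-181d. Neighbours in these orders often had overlapping arrays, in 9 of 9 steps for mmu-miR-181b, 7 of 9 for mmu-miR-181a, 7 of 9 for mmu-miR-181d, and 4 of 9 for mmu-miR-181c. Only mmu-miR-181c had all 5 TAB samples above all 5 sham samples.

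No change of the TAB effect with time was detected. The effect of the late days (14 and 28) minus that of the early days (3, 5, and 7) was -0.14 for mmu-miR-181a (95% interval -0.97 to 0.68), 0.14 for mmu-miR-181b (-0.72 to 1.01), 0.11 for mmu-miR-181c (-0.25 to 0.47), and -0.08 for mmu-miR-181d (-0.66 to 0.50). The adjusted p was 0.925 or more for each of them (limma). Of all miRNAs tested, 0 (0%) passed this test and 58 had an unadjusted p below 0.05. The intervals are wide, as 5 differences with 3 residual degrees of freedom give little precision.

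The a/b and c/d clusters were then set side by side through their TAB minus sham differences, which compare each probe only with itself. The mean difference of mmu-miR-181a and mmu-miR-181b was 0.68, -0.10, 0.27, -0.10, and 0.66 on days 3, 5, 7, 14, and 28, and that of mmu-miR-181c and mmu-miR-181d was 0.34, 0.59, 0.30, 0.19, and 0.66. The a/b value minus the c/d value was thus 0.33, -0.69, -0.04, -0.29, and -0.00074 on those days. Over the days it was -0.14 ± 0.38 (SD, n = 5), so the spread between days was larger than the mean, and the clusters were not shown to differ. Day 3 had the a/b clusters higher and day 5 the c/d cluster higher, and on days 7 and 28 they were close. A single scaling factor per array cancels in this quantity, but a constant background does not, and none was subtracted. Empty spots had medians of 65 to 74, beside raw intensities of 134 to 252 for the c/d members and 168 to 1273 for the a/b members. The part of array brightness in this quantity was not tested. With the 75th percentile or no scaling the a/b minus c/d value was -0.00090, -0.90, -0.39, -0.43, and -0.21, with a mean of -0.39 ± 0.34 (SD, n = 5). Its sign was then negative on 5 of 5 days, though on day 3 only by the last digits. With the target per surgery the mean was -0.41 and the sign negative on 4 of 5 days. Day 5 had the lowest value under each of these scalings, and without day 5 the mean under the common distribution was 0.00081.

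**Figure D4:**
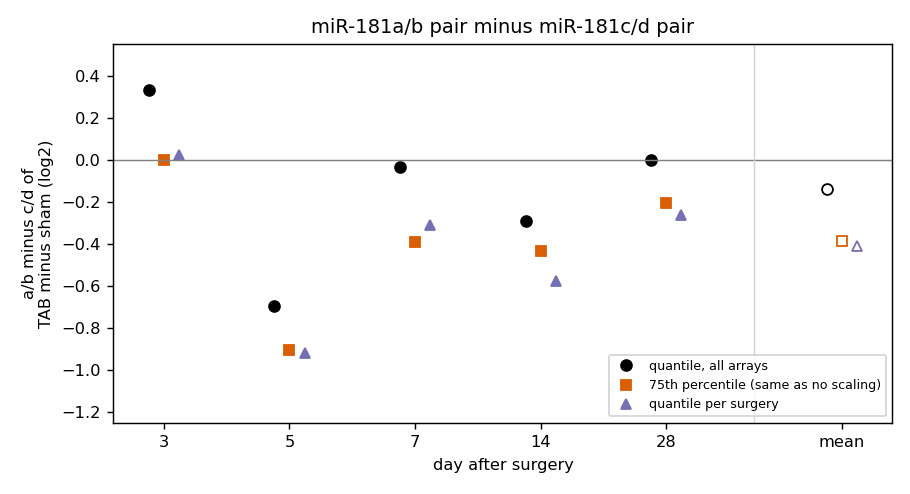
Mean of mmu-miR-181a and mmu-miR-181b minus mean of mmu-miR-181c and mmu-miR-181d (vertical axis, log2), each taken of the TAB minus sham difference, on each day and as the mean of the 5 days in open symbols (horizontal axis). Symbols are 3 scalings of the arrays. All 3 are lowest on day 5, and their means are -0.14, -0.39, and -0.41.

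Over the 10 averaged samples the correlation was 0.83 between mmu-miR-181a and mmu-miR-181b (rho 0.79) and 0.90 between mmu-miR-181c and mmu-miR-181d (rho 0.89). The 4 pairs across clusters had r of 0.43 to 0.67. With the mean of each surgery taken off, the 2 pairs within clusters had r of 0.78 and 0.79 and the pairs across clusters 0.16 to 0.47. The pairs across clusters included both pairs of nearly identical sequence, mmu-miR-181a with mmu-miR-181c at 0.47 and mmu-miR-181b with mmu-miR-181d at 0.16. Without sham day 14, a choice made after the data were seen, the within-cluster values were 0.74 and 0.72 and those across clusters -0.23 to 0.24. These are descriptions over 10 samples that share arrays and normalization, and the differences between the correlations were not tested.

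Among the 435 other miRNAs found on all 20 arrays, the patterns most like mmu-miR-181a over the 10 samples were those of mmu-miR-361, mmu-miR-29a, and mmu-miR-151-3p (r = 0.90, 0.90, and 0.89). For mmu-miR-181b they were mmu-miR-378*, mmu-miR-873, and mmu-miR-125b-5p (0.94, 0.88, and 0.88). For mmu-miR-181c they were mmu-miR-140, the shared probe of mmu-miR-28 and mmu-miR-28c, and mmu-miR-195 (0.98, 0.97, and 0.97). For mmu-miR-181d they were mmu-miR-101b, mmu-miR-191, and mmu-miR-151-5p (0.98, 0.97, and 0.96). Among the same 435 the lowest r was -0.90, -0.88, -0.96, and -0.92 for a, b, c, and d. With 10 samples, strong correlations of both signs thus occurred, and the likeness of the top miRNAs was not tested. The partner in the cluster ranked 8 for mmu-miR-181a, 7 for mmu-miR-181b, 51 for mmu-miR-181c, and 28 for mmu-miR-181d. With the surgery means taken off, the first of each list was mmu-miR-361 for a (0.93), mmu-miR-99b for b (0.95), mmu-miR-140 for c (0.91), and mmu-miR-101b for d (0.96). Next came mmu-miR-145 and mmu-miR-185 for a, mmu-miR-378* and mmu-miR-30e* for b, mmu-miR-101b and mmu-miR-195 for c, and mmu-miR-148a and mmu-let-7b for d.

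The opposite strands of the hairpins differ between the clusters of chromosomes 1 and 2 and could have told the source of the a and b strands. Their signals were too weak for that. mmu-miR-181a-1*, mmu-miR-181b-1*, and mmu-miR-181d* were found on 0 of 10 TAB arrays and 0 of 10 sham arrays. mmu-miR-181a-2* was found on 0 TAB arrays and 1 sham array, and mmu-miR-181b-2* on 1 TAB array and 2 sham arrays. mmu-miR-181c* was found on 2 TAB arrays and 7 sham arrays, at raw intensities of 79 to 100 in TAB and 88 to 118 in sham. None of the 6 was called over the 5 days, where their differences lay between -0.03 and 0.07. On day 5, when 20.5% of all miRNAs were called lower in TAB, mmu-miR-181b-1* was among them at -0.19 (adjusted p = 0.0412), although no array had found it. No rat probe of the family was on the array.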

How the data were processed

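The authors deposited the raw Cy5 intensity of each spot of the Mouse & Rat miRNA OneArray, read with GenePix and with no background subtracted, together with a processed table of 1 intensity per miRNA and array. By the methods of the study, the array's manufacturer provided the processed data, after removal of flagged miRNAs and a median over repeated spots. The values were also quantile-normalized within technical replicates. Here the raw intensities were used: the median of the 3 spots of each of 1086 mouse probes was taken, 158 probes with a negative flag on every spot were removed, and log2 values of 928 miRNAs were quantile-normalized with limma 3.58.1 in R 4.3.3. Being found on an array required 2 or more unflagged spots of 3. The 2 arrays of a sample were averaged, and TAB was tested against sham with limma, in a model with a term for day (4 residual degrees of freedom). Single days were tested on the 20 arrays (10 residual degrees of freedom), and the late minus early effect on the 5 differences. All tests were two-sided and adjusted by the Benjamini-Hochberg method over all miRNAs, with a threshold of 0.05. With 5 samples per surgery the precision is low, and an array gives no count of molecules. The scripts were tested on simulated data. Named miRNAs were the members, the opposite strands of their hairpins, and for each member the 3 most alike by Pearson correlation with and without the surgery means. The members, lists and tests were chosen with earlier results of these data known. The alternatives were other scalings, the processed table, background correction (normexp, offset 50), other flag filters, the mean of spots, the replicate number as a block, and leaving out each day or replicate.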

Additional observations from a re-analysis of the deposited data

How the results depend on the processing

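The calls of mmu-miR-181c and mmu-miR-181d over the 5 days were unchanged with the 75th percentile, the processed table, normexp, the mean of spots, no filter on flags, only miRNAs found on all 20 arrays, no day term, and 20 arrays as samples. With no scaling the differences over 5 days of mmu-miR-181a to mmu-miR-181d were -0.39, -0.40, 0.069, and -0.089, and with the quantile target per surgery -0.43, -0.45, 0.043, and -0.10, and the cause was not tested. The common distribution gave 179 miRNAs called higher and 202 lower in TAB. These counts were 593 and 110 with the 75th percentile, 592 and 113 with the processed table, 27 and 500 with no scaling, 34 and 681 with the target per surgery, and 110 and 126 among miRNAs found on all 20 arrays, where fewer were tested. Leaving out a day or a replicate gave 110 to 169 higher and 115 to 206 lower.

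With a day or a replicate left out, the difference ranged from 0.25 to 0.47 for mmu-miR-181a, from 0.11 to 0.34 for mmu-miR-181b, from 0.43 to 0.52 for mmu-miR-181c (adjusted p at most 0.0186), and from 0.27 to 0.42 for mmu-miR-181d (adjusted p 0.0202 to 0.109). The late minus early effect, called for no member, ranged from -0.57 to 0.28 for mmu-miR-181a, from -0.25 to 0.54 for mmu-miR-181b, from -0.088 to 0.31 for mmu-miR-181c, and from -0.35 to 0.19 for mmu-miR-181d. It was also of the opposite sign for mmu-miR-181c with the 75th percentile (-0.028) and the processed table (-0.028), and with no scaling for mmu-miR-181a (0.44) and mmu-miR-181d (0.29). The a/b minus c/d value ranged from -0.41 to 0.00081 over all settings.

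On single days, signs opposite to those under the common distribution came with 3 kinds of setting. With the 75th percentile and the processed table this was mmu-miR-181a on day 5 (-0.0048 and -0.013). With no scaling it was mmu-miR-181a on days 3, 5, and 7 (-0.25, -0.91, and -0.55), mmu-miR-181b on days 3 and 7 (-0.14 and -0.56), mmu-miR-181c on days 3, 5, and 7 (-0.14, -0.15, and -0.044), and mmu-miR-181d on days 3, 5, 7, and 14 (-0.26, -0.073, -0.29, and -0.18). With the target per surgery it was mmu-miR-181a on days 3, 5, 7, and 28 (-0.045, -0.68, -0.33, and -0.13), mmu-miR-181b on days 3, 7, and 28 (-0.076, -0.56, and -0.046), mmu-miR-181c on days 3, 7, and 14 (-0.024, -0.032, and -0.069), and mmu-miR-181d on days 3, 7, and 14 (-0.14, -0.23, and -0.44).

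Whether the replicate numbers pair the samples was not settled. The replicate 1 minus replicate 2 values of different groups correlated at -0.28 to 0.42, above 0.1 in 19 of 45 pairs. Between TAB and sham of the same day they correlated at -0.01, 0.14, 0.18, -0.04, and 0.14 on days 3, 5, 7, 14, and 28. A fit on the 20 arrays counts the 2 technical replicates of a sample as separate samples, 10 for each surgery where 5 are distinct, so its p-values are too small. With a replicate block in that fit, mmu-miR-181a was called at 0.35 (adjusted p = 0.00762; 0.0092 with no block), and in the single-day fit the replicate block added a call of mmu-miR-181a on day 7 (0.39, adjusted p = 0.0276). The low raw intensity of mmu-miR-181c and mmu-miR-181d, 134 to 252 over empty spots at 65 to 74, limits what their fold changes can show.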
